A study of Mus musculus with 7 samples.

Results

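The genes described here are 44 members of 5 DNA repair routes that act outside homologous recombination: 5 mismatch repair, 16 base excision, 11 nucleotide excision, 9 end-joining and 3 direct reversal genes. They were found by matching Ensembl identifiers in the count files to GENCODE mouse symbols. All 44 were among the 46603 genes counted, and all 44 were among the 16887 genes tested. The samples were 7 RNA-seq libraries from tumors that grew in female 16-week-old Balb/c nude mice, which lack mature T cells, after injection of mouse embryonic fibroblasts (MEFs). The paper's methods place the injection under the skin of the right flank, whereas its results place it in the mammary pads. In 3 libraries (KO) the injected cells were MEFs in which Nuclear Myosin 1 (NM1, a nuclear isoform made from Myo1c) had been knocked out by CRISPR/Cas9. The other 4 (KO + NM1) came from the same knockout MEFs carrying a lentiviral copy of NM1 with HA and V5 tags, grown from neomycin-selected single clones. The injected cells of both groups therefore carry the knockout, and the groups differ by the added NM1. Tumors were taken by day 30, and the labels read as a single KO tumor and a single KO + NM1 tumor, each cut into 4 pieces, of which 3 and 4 were made into libraries of their own. Replicates are thus pieces, the p-values measure the spread between pieces, and differences between mice or clones were not measured. RNA of the injected cells and of the host tissue was counted together.

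These routes each remove a different kind of DNA damage. Mismatch repair finds wrongly paired bases left by replication through MutS complexes and removes the new strand through MutL complexes. In base excision repair a glycosylase cuts out a single damaged base, an endonuclease opens the strand, and a polymerase and ligase fill the gap. Nucleotide excision repair cuts out a short stretch around a bulky lesion such as a UV photoproduct, end joining rejoins broken DNA ends without a template, and direct reversal strips alkyl groups from bases. Mismatch and part of base excision repair work behind the replication fork, whereas end joining acts throughout the cell cycle.

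Library totals lay between 24088309 and 28326568 counts, and reads of the members made up 0.207 to 0.24% of the KO libraries and 0.098 to 0.163% of the KO + NM1 libraries. The groups differed in more than repair genes. All 14 genes of a cycling cell list, such as Mki67 and Top2a, were higher in KO, with a summed level of 2810 to 3530 CPM (counts scaled to a common library size by the TMM method) in KO and 51.5 to 234 CPM in KO + NM1. All 10 white adipocyte markers were lower in KO (185 to 400 against 5400 to 39600 CPM summed), and all 10 skeletal muscle markers were higher (2550 to 20600 against 6.72 to 27.3 CPM). Fibroblast markers were detected in every piece at 9870 to 16000 CPM in KO and 4080 to 15400 CPM in KO + NM1. These markers cannot tell injected fibroblasts from those of the host. KO + NM1 piece 1 stood apart from pieces 2 to 4, with a summed B cell marker level of 4220 CPM against 3.33 to 17.2 CPM. A bulk library cannot separate fewer cells of a type from less RNA per cell, and the part of tissue makeup and cycling cells in the differences below was not tested. Counts of Myo1c, the gene that encodes NM1, were 313, 289 and 306 CPM in KO and 438, 408, 406 and 382 CPM in KO + NM1 (log2 fold change -0.43, SE 0.13, adjusted p = 0.031). The Myo1c call was lost with library size as the only scaling (-0.25, adjusted p = 0.297), with the piece number as a block (0.126), without any 1 KO piece (0.0508 to 0.072) and without KO + NM1 piece 2 (0.062). Those counts pool all Myo1c isoforms, so the labels can be checked with them only for the gene as a whole.

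Of the 44 repair genes, 18 were higher in KO than in KO + NM1 tumor pieces, 4 were lower and 22 did not pass the test (edgeR quasi-likelihood test, Benjamini-Hochberg adjusted p under 0.05 over all genes tested). The members called higher were 40.9% of the list, where 25.7% of all genes tested were called higher, and those called lower were 9.09%, where 24.5% of all genes were. With a change of at least 2-fold also required, 11 members (25%) were higher and 3 (6.82%) lower, beside 17.1% and 20.3% of all genes. The median log2 fold change was 0.24 over the members and 0 over all genes. The pieces of the groups did not overlap for some members, with KO higher for 20 (45.5%, against 30.5% of all genes) and lower for 7 (15.9%, against 26.4%), and overlapped for 17. The number of members called higher was 10 without KO piece 1, 12 without piece 2 and 10 without piece 3, and the 2-fold count was 7, 7 and 6. Over all genes the number called higher also went down, from 4345 to 2910, 3024 and 2933. Leaving out KO + NM1 piece 1 gave 21 members higher and 8 lower, with 5957 and 5980 of all genes in place of 4345 and 4132, and upper-quartile scaling gave 17 higher and 8 lower. Of 17 alternative fits, 1 tested against a 2-fold change and called 6 members, Msh6, Ung, Neil2, Neil3, Tdg and Lig3. In each of the other 16 that tested them, 11 called members passed, namely these and Msh3, Mlh3, Apex1, Ddb1 and Ddb2.

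**Figure D1:**
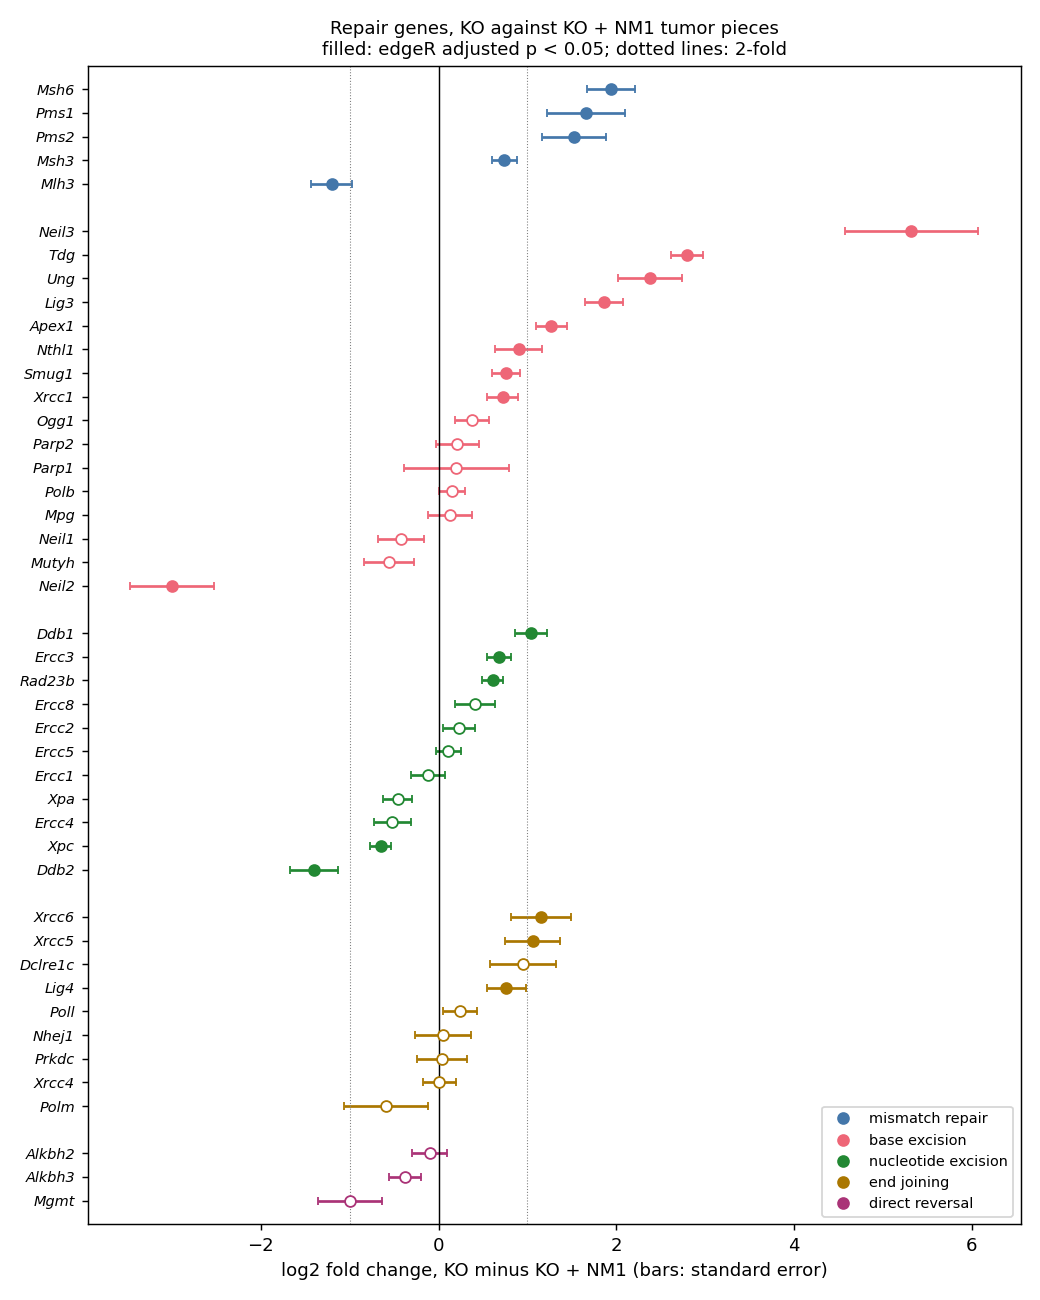
Log2 fold change (KO minus KO + NM1) of the 44 members with its standard error as bars, grouped by repair route, where points right of 0 are higher in KO. Mismatch repair genes sit at 0.74 to 1.94 apart from Mlh3 at -1.20, Neil3 is the member farthest right at 5.32 and Neil2 the farthest left at -3.00.

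Promoter sequence is shown for 3 of the 4 mismatch repair genes that rose (Msh3, Msh6 and Pms2, with Pms1 not printed), for Nthl1, the only member besides Msh3 whose window held E2F-type letters, and for Neil3, which had the largest rise. Windows run from 250 bases before to 50 after the start (RefSeq, GRCm38.p6) and are written along the gene's own strand. They are chr13:92354954-92355253 on the minus strand for Msh3, chr17:87974800-87975099 on the plus strand for Msh6, chr5:143909751-143910050 on the plus strand for Pms2, chr17:24632432-24632731 on the plus strand for Nthl1 and chr8:53639016-53639315 on the minus strand for Neil3. Capitals mark any of the letters TTTCGCGC and TTTGGCGC (E2F-type), CCAAT (NF-Y-type) and TTTGAA (CHR-type), read on both strands.
Msh3: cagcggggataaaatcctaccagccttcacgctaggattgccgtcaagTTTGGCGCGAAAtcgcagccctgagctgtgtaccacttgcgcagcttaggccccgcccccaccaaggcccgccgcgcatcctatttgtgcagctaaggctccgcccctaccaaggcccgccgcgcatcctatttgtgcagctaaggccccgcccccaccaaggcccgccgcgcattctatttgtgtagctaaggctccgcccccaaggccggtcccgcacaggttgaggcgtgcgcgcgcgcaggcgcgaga
Msh6: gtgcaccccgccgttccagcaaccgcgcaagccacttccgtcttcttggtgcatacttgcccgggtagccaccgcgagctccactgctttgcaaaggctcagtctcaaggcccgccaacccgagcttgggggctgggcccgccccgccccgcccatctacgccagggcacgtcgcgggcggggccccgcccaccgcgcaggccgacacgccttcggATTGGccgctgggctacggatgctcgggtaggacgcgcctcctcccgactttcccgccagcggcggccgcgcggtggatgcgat
Pms2: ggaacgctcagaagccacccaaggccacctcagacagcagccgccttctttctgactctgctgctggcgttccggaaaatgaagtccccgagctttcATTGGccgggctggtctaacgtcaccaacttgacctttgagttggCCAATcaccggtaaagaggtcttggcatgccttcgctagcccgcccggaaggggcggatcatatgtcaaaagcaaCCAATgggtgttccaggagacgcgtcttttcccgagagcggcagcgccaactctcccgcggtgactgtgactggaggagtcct
Nthl1: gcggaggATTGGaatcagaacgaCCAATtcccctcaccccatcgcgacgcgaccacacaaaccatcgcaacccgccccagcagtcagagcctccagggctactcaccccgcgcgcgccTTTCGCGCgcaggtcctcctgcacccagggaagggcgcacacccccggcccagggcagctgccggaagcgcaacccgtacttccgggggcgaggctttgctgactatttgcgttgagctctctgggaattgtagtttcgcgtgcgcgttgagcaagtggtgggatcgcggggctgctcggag
Neil3: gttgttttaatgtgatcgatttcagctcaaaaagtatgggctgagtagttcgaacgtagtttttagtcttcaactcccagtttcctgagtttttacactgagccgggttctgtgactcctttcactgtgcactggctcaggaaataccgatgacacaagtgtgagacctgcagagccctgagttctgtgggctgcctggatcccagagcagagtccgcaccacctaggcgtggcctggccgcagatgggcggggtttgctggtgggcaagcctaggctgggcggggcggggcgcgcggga

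In Msh3 the E2F-type letters overlap each other, TTTGGCGC starting 202 bases and TTTCGCGC on the other strand 198 bases before the start, and in Nthl1 TTTCGCGC begins 132 bases before it. One or both of these words occurred in 2 of the 37 members with a window (5.41%) and in 0.929% of 27025 genes. CCAAT stood in 22 of 37 members (59.5%, against 41.1% of genes), among them Msh6 with 1, Pms1 with 2 and Pms2 with 3 copies. It was found in 11 of 17 members called higher, in 10 of 19 not called and in the 1 called lower that had a window. TTTGAA occurred in 1 of 37 (Ercc5), against 20.2% of genes, and the Neil3 window held none of the 4 words. A match is only a description of the letters, and its absence says nothing of factor binding.

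In mismatch repair, 4 of the 5 genes were higher in KO tumors (80%, against 25.7% of all genes) and 1 was lower (20%, against 24.5%). The damage-recognising partner Msh6 rose 3.83-fold and the MutL subunits Pms1 and Pms2 rose 3.15-fold and 2.88-fold. Mlh3, a MutL subunit best known from meiotic crossing over, fell, with a level 2.31-fold higher in KO + NM1. No member of this class overlapped between the groups, with KO higher for 80% and lower for 20%. Over all genes those shares were 30.5% and 26.4%.

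Msh6 (chr17:87975062-87990892), which with its MutS partner recognises single mispairs and short loops, measured 113, 103 and 90.7 CPM in the KO pieces and 40.7, 19.4, 23.8 and 22.6 CPM in the KO + NM1 pieces (log2 fold change 1.94, SE 0.27, adjusted p = 0.0015). Msh3 (chr13:92211872-92355003), which takes the place of Msh6 in the complex that recognises larger loops, measured 23.5, 24.0 and 23.9 CPM against 14.3, 13.2, 14.2 and 15.2 CPM (0.74, SE 0.14, adjusted p = 0.00487). Both were higher in every KO piece, but by different amounts, and the number of Msh6 reads per Msh3 read was 4.81, 4.27 and 3.8 in KO and 2.85, 1.47, 1.67 and 1.49 in KO + NM1. This ratio within a library does not depend on library scaling, did not overlap and differed by 1.25 on the log2 scale.

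Pms2 (chr5:143909964-143933968), the subunit that nicks the strand to be removed, measured 28.3, 24.5 and 28.7 CPM in KO and 16.4, 7.08, 6.08 and 8.1 CPM in KO + NM1 (log2 fold change 1.52, SE 0.36, adjusted p = 0.0114). Pms1 (chr1:53189187-53297018) measured 15.5, 11.5 and 12.3 CPM against 7.81, 2.32, 2.87 and 3.58 CPM (1.66, SE 0.44, adjusted p = 0.0181). For both genes KO + NM1 piece 1 was the highest of its group and still under the lowest KO piece. The Pms1 call was lost without KO piece 1 (adjusted p = 0.0782), piece 2 (0.0503) or piece 3 (0.0588) or KO + NM1 piece 4 (0.0504), and the Pms2 call without KO piece 3 (0.0503). Mlh3 (chr12:85234520-85270599) went the other way, at 5.27, 8.62 and 7.5 CPM in KO and 13.8, 15.9, 17.6 and 18.4 CPM in KO + NM1 (-1.20, SE 0.23, adjusted p = 0.00562). Pms2 gave 5.37, 2.84 and 3.83 reads per Mlh3 read in KO, and 1.19, 0.444, 0.345 and 0.441 in KO + NM1, a difference of 2.87 on the log2 scale. The ratio of Pms2 to Pms1 overlapped between the groups, at 1.83 to 2.34 in KO and 2.11 to 3.05 in KO + NM1.

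**Figure D2:**
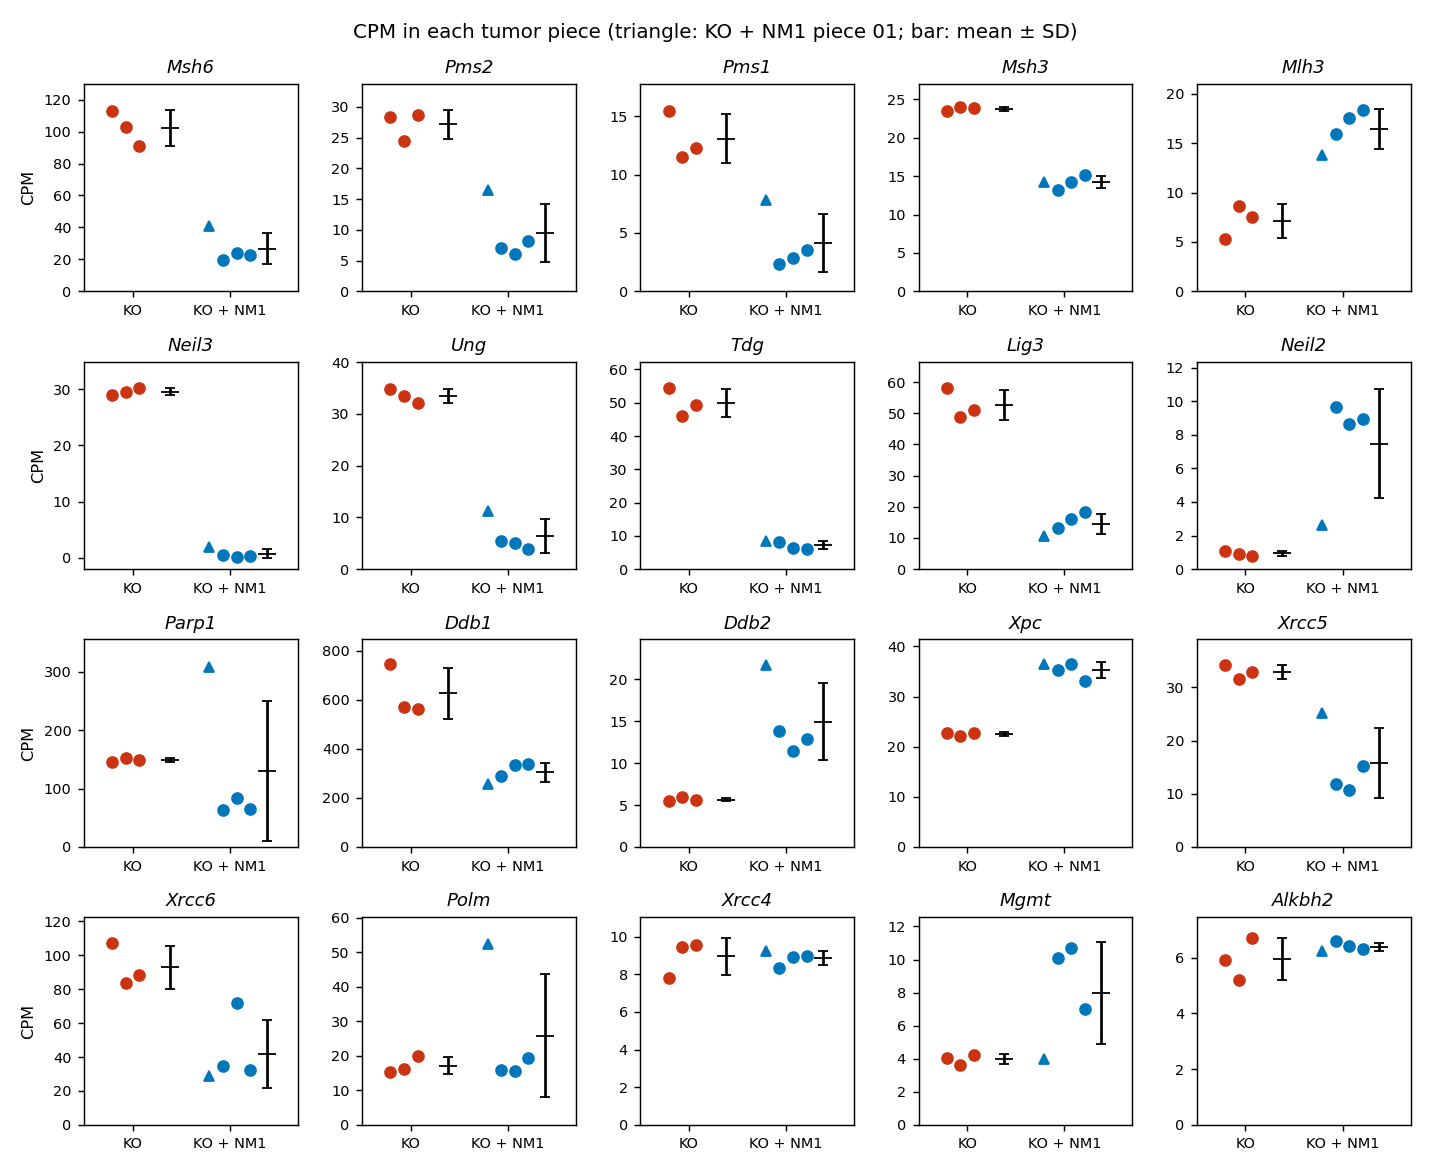
TMM-scaled CPM in each tumor piece for 20 of the members, where points are pieces (3 KO, 4 KO + NM1) and bars give the mean and SD. KO pieces of Msh6 (90.7 to 113 CPM) lie above all KO + NM1 pieces (19.4 to 40.7 CPM), and those of Mlh3 lie below.

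Most of the genes that resynthesise and seal the strand after mismatch excision were also higher in KO. From a list of 15 (sliding clamp, clamp loaders, single-strand binding proteins, replicative polymerase, exonuclease and ligase), 12 were called higher in KO (80%, against 25.7% of all genes) and none was called lower, and 11 of the 12 changed at least 2-fold (median log2 fold change 1.85). Rfc2 and Pold1 did not pass, and neither did Pold4, a polymerase subunit whose KO pieces all lay below the KO + NM1 pieces (-1.25, SE 0.47, adjusted p = 0.0657). Exo1, the exonuclease that digests the mismatched strand, had a log2 fold change of 5.27 (SE 0.70, adjusted p = 0.00181), and Lig1, the replicative ligase, one of 3.10 (SE 0.32, adjusted p = 0.000711). The Exo1 value rests on 45, 3, 8 and 11 counts in KO + NM1, so its size is less certain than its direction. The proteins of this list also copy the genome, and all 14 genes of the cycling list were higher in the same pieces. A link between the lists was not tested.

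Base excision repair held both the largest rise and the largest fall. Of its 16 genes, 8 were higher in KO (50%, against 25.7% of all genes), 1 was lower (6.25%, against 24.5%) and 7 did not pass. The median log2 fold change was 0.55. The glycosylases Neil3, Tdg and Ung rose 39.9-fold, 6.91-fold and 5.21-fold, and Lig3, the nick-sealing ligase, rose 3.63-fold. Neil2, another glycosylase of the Nei family, was 7.99-fold higher in KO + NM1.

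Neil3 (chr8:53586867-53639065), which removes oxidised bases from single-stranded DNA and opens interstrand crosslinks, measured 29.0, 29.4 and 30.2 CPM in KO and 1.9, 0.488, 0.0988 and 0.411 CPM in KO + NM1 (log2 fold change 5.32, SE 0.75, adjusted p = 0.00223). The KO + NM1 values rest on 52, 12, 2 and 10 counts, against 845 to 915 counts in KO, so the size of the fold is less certain than its direction. Neil2 (chr14:63182443-63193856), which acts on oxidised bases in bubbles and transcribed DNA, measured 1.1, 0.904 and 0.793 CPM in KO and 2.63, 9.68, 8.65 and 8.96 CPM in KO + NM1 (-3.00, SE 0.47, adjusted p = 0.00322). KO + NM1 piece 1 was here the lowest of its group. Neil1, the third member of the family, did not pass the test at 12.8, 17.2 and 16.3 CPM against 29.6, 17.1, 20.4 and 15.7 CPM (-0.42, SE 0.26, adjusted p = 0.226). Set against Neil1, KO pieces gave 2.26, 1.7 and 1.86 Neil3 reads per read, and KO + NM1 pieces 0.064, 0.0286, 0.00485 and 0.0262 (difference 6.45 on the log2 scale). Neil2 gave 0.0857, 0.0524 and 0.0487 reads per Neil1 read in KO and 0.0887, 0.567, 0.425 and 0.572 in KO + NM1. The latter groups are just apart, because KO piece 1 and KO + NM1 piece 1 nearly meet, and the log2 difference of -2.46 became -3.10 without KO + NM1 piece 1. In KO the order of the family by reads per kilobase was Neil1, Neil3, Neil2 (8.26, 5.31 and 0.186 CPM per kb of exon), and in KO + NM1 it was Neil1, Neil2, Neil3 (11.1, 1.49 and 0.13). Per kilobase of the longest transcript, Neil3 and Neil1 changed places in KO (9.57 and 9.13), so their order there depends on the length used.

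Tdg (chr10:82629828-82650799), the glycosylase of G:T mispairs and of oxidised methylcytosine, measured 54.3, 46.1 and 49.3 CPM in KO and 8.46, 8.1, 6.37 and 5.92 CPM in KO + NM1 (log2 fold change 2.79, SE 0.18, adjusted p = 0.000229). Over 84.8% of its longest transcript Tdg matches the pseudogene Tdg-ps at 95% identity or more, so reads may have been split or lost between them, and Tdg-ps itself was counted 0.90 higher on the log2 scale (SE 0.24, adjusted p = 0.017). The same holds for Gm9855, which matches 34.1% of that transcript and was counted 1.58 higher in KO (SE 0.20, adjusted p = 0.00121). Ung (chr5:114130386-114139323), which excises uracil from DNA, measured 34.9, 33.4 and 32.2 CPM against 11.3, 5.49, 5.04 and 3.91 CPM (2.38, SE 0.36, adjusted p = 0.00222). Smug1, a second uracil glycosylase, measured 26.1, 25.2 and 29.9 CPM against 13.8, 16.5, 16.7 and 17.2 CPM (0.76, SE 0.16, adjusted p = 0.00672). Ung gave 1.34, 1.33 and 1.08 reads per Smug1 read in KO and 0.82, 0.333, 0.303 and 0.227 in KO + NM1, a log2 difference of 1.75. Ung thus outnumbered Smug1 in all KO pieces and in no KO + NM1 piece.

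The other glycosylases differed by less than 2-fold. Nthl1, which takes out oxidised pyrimidines, was higher in KO (14.4, 14.6 and 12.8 CPM against 4.85, 9.28, 8.3 and 7.32 CPM, log2 fold change 0.90, SE 0.26, adjusted p = 0.0234), a call that was lost without any 1 KO piece (adjusted p = 0.0847 to 0.112) or without KO + NM1 piece 4 (0.0617). The Smug1 call was lost without KO piece 3 (adjusted p = 0.0691). Mpg, the alkyladenine glycosylase, was the member of the class with the smallest change among those that did not pass (14.1, 13.9 and 14.8 CPM against 18.7, 11.2, 10.0 and 12.1 CPM, log2 fold change 0.13, SE 0.25, adjusted p = 0.684). Ogg1, which removes oxidised guanine, had a log2 fold change of 0.38 (adjusted p = 0.146), and Mutyh, which removes the adenine paired with it, one of -0.56 (adjusted p = 0.136).

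Among the genes that finish the repair, Lig3 (chr11:82781108-82804274) measured 58.2, 48.9 and 51.1 CPM in KO and 10.7, 13.3, 16.0 and 18.2 CPM in KO + NM1 (log2 fold change 1.86, SE 0.21, adjusted p = 0.000782). Apex1, the endonuclease that cuts at the empty site, was 2.41-fold higher in KO (1.27, SE 0.17, adjusted p = 0.00132), and the Lig3 scaffold Xrcc1 was 1.64-fold higher (0.72, SE 0.17, adjusted p = 0.0119). The Xrcc1 call was lost without any 1 KO piece (adjusted p = 0.0561 to 0.0712). Pip4p1 overlaps 61.7% of the Apex1 exons on the opposite strand and was 0.66 lower in KO on the log2 scale, with the strand setting of the counting not given in the sources used here. Other opposite-strand overlaps were 42.7% of Ercc2 (Klc3), 35.7% of Mpg (Nprl3, 0.70 higher in KO on the log2 scale), 29.5% of Alkbh2 (Usp30), 25.1% of Lig3 (Rffl) and 10.6% of Ogg1 (Camk1), and reads of such partners cannot be told apart without strand. The gap-filling polymerase Polb did not pass the test, at 25.8 ± 2.14 CPM in KO (SD, n = 3) and 23.2 ± 2.05 CPM in KO + NM1 (SD, n = 4, adjusted p = 0.418).

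Parp1 and Parp2, the poly(ADP-ribose) polymerases that mark strand breaks, did not pass the test in all 7 libraries. Parp1 measured 145, 153 and 148 CPM in KO and 308, 62.7, 84.4 and 64.3 CPM in KO + NM1 (log2 fold change 0.20, SE 0.59, adjusted p = 0.804). The KO values lie between KO + NM1 piece 1 and its other pieces. Without KO + NM1 piece 1 the log2 fold change was 0.95 (adjusted p = 0.000716). Parp2 showed the same arrangement, at 30.5 to 33.4 CPM in KO, 41.0 CPM in KO + NM1 piece 1 and 21.7 to 25.0 CPM in pieces 2 to 4.

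**Figure D3:**
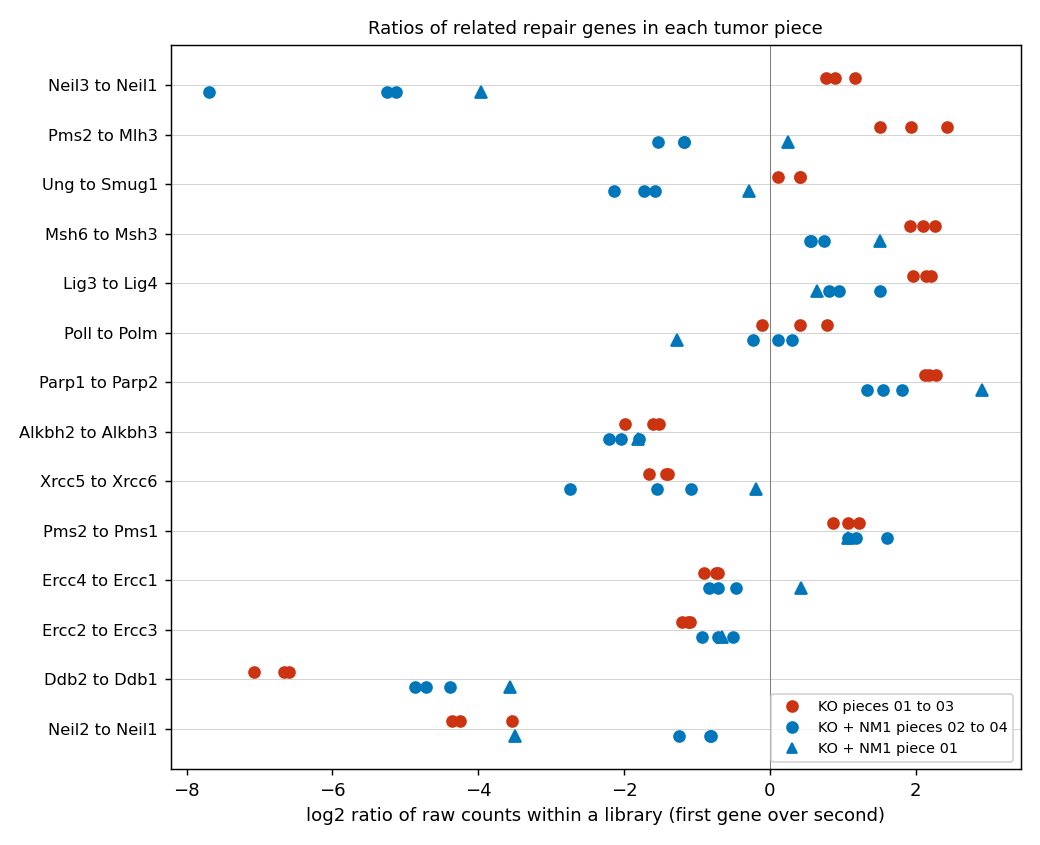
Log2 ratio of the raw counts of related members within each library, with 1 row for each of 14 pairs and 1 point for each piece. The pieces of the groups do not overlap and the group means differ by at least 1 for 7 pairs, such as Neil3 to Neil1 (difference 6.45) and Ddb2 to Ddb1 (-2.39), and the pieces overlap for pairs such as Xrcc5 to Xrcc6 and Pms2 to Pms1.

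In nucleotide excision repair 3 of 11 genes were higher in KO (Ddb1, Ercc3 and Rad23b), 2 were lower (Ddb2 and Xpc) and 6 did not pass, with a median log2 fold change of 0.11. These shares, 27.3% and 18.2%, were near those of all genes (25.7% and 24.5%), so the class as a whole did not stand out and the values of its genes are what follows. All of the called genes but Ercc3 act in finding lesions. Ddb1 and Ddb2 form the UV-damage binding complex, in which Ddb2 touches the lesion and Ddb1 links it to the Cul4 ubiquitin ligases, and Xpc and Rad23b form the general sensor of distorted DNA. In each complex 1 partner was higher and 1 lower.

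Ddb1 (chr19:10605327-10629819) was the member with the highest level per kilobase in both groups (97.8 and 47.6 CPM per kb) and measured 746, 571 and 564 CPM in KO and 259, 288, 333 and 339 CPM in KO + NM1 (log2 fold change 1.04, SE 0.18, adjusted p = 0.00348). Ddb2 (chr2:91211572-91236982) measured 5.5, 5.91 and 5.55 CPM in KO and 21.7, 13.8, 11.4 and 12.9 CPM in KO + NM1 (-1.40, SE 0.27, adjusted p = 0.00551). Its level was 2.64-fold higher in KO + NM1, and Acp2, which overlaps 23.8% of its exons on the opposite strand, was 0.78 higher in KO on the log2 scale. Reads of Ddb2 per Ddb1 read were 0.00737, 0.0103 and 0.00984 in KO and 0.0841, 0.0477, 0.0341 and 0.038 in KO + NM1, a log2 difference of -2.39.

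Rad23b, at 217, 182 and 182 CPM in KO and 127, 127, 129 and 126 CPM in KO + NM1, was 1.52-fold higher in KO (log2 fold change 0.61, SE 0.12, adjusted p = 0.00586, and 0.0644 without KO piece 1). Xpc, at 22.8, 22.1 and 22.7 CPM in KO and 36.4, 35.3, 36.5 and 33.1 CPM in KO + NM1, was 1.57-fold higher in KO + NM1 (-0.65, SE 0.12, adjusted p = 0.00443). Neither gene overlapped between the groups. With library size alone as the scaling, the Xpc value was -0.46 and its adjusted p 0.0526.

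Ercc3, a helicase of the TFIIH complex that opens DNA at the lesion, measured 66.3, 60.3 and 60.6 CPM in KO and 46.2, 36.3, 36.3 and 37.3 CPM in KO + NM1 (log2 fold change 0.68, SE 0.14, adjusted p = 0.00579, and 0.0501 without KO piece 1). The other TFIIH helicase, Ercc2, did not pass (0.23, adjusted p = 0.324). The ratio of Ercc2 to Ercc3 was lower in every KO piece (0.434 to 0.468) than in any KO + NM1 piece (0.524 to 0.7). Ercc5, the nuclease that cuts on one side of the lesion, had the smallest change among the genes of the class that did not pass, at 24.7, 25.3 and 24.2 CPM against 21.8, 24.9, 21.2 and 24.0 CPM (0.11, SE 0.14, adjusted p = 0.548). The nuclease pair on the other side, Ercc1 and Ercc4, had log2 fold changes of -0.12 and -0.52 (adjusted p = 0.608 and 0.0819). Xpa, which checks the lesion, had -0.46 with KO pieces below all KO + NM1 pieces (adjusted p = 0.0508), and Ercc8, of transcription-coupled repair, had 0.41 (adjusted p = 0.157).

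Of 16 further nucleotide excision genes, 7 were called higher in KO (43.8%, against 25.7% of all genes) and none lower (against 24.5%). Cul4b, a scaffold of the ligase that Ddb1 joins, was the one past 2-fold (log2 fold change 1.15, SE 0.15, adjusted p = 0.00129). Of 10 further base excision genes 3 were higher and 1 lower (30% and 10%, against 25.7% and 24.5% of all genes). The gene lower in KO was Aptx, which removes blocked ends at strand breaks (-0.65, SE 0.13, adjusted p = 0.00707).

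For end joining, 3 of 9 genes were higher in KO (33.3%, not far from the 25.7% of all genes), none was called lower and 6 did not pass, with a median log2 fold change of 0.24. The genes that rose were Xrcc5 and Xrcc6, which encode the Ku heterodimer that caps broken ends, and Lig4, the ligase of the pathway. Each of these 3 calls was lost when 1 of several single libraries was left out.

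Xrcc6 (chr15:81987835-82040085) measured 107, 83.4 and 88.1 CPM in KO and 28.7, 34.7, 71.6 and 32.3 CPM in KO + NM1 (log2 fold change 1.15, SE 0.34, adjusted p = 0.025). Xrcc5 (chr1:72307421-72394952) measured 34.2, 31.6 and 32.8 CPM against 25.1, 11.8, 10.7 and 15.3 CPM (1.06, SE 0.31, adjusted p = 0.0244). The Ku genes each had 1 KO + NM1 piece well above its group, and it was a different piece, piece 3 for Xrcc6 and piece 1 for Xrcc5. Their ratio overlapped, at 0.318 to 0.379 in KO and 0.15 to 0.875 in KO + NM1. Lig4 (chr8:9969049-9977686) measured 14.9, 10.6 and 11.5 CPM against 6.82, 7.61, 8.3 and 6.37 CPM (0.76, SE 0.22, adjusted p = 0.0226). Without any 1 KO piece, or without KO + NM1 piece 2 or 4, the adjusted p was 0.0749 to 0.124 and 0.0685 to 0.0711 for Xrcc6, 0.0793 to 0.0963 and 0.0599 to 0.0638 for Xrcc5, and 0.065 to 0.158 and 0.0559 to 0.0645 for Lig4. Without KO + NM1 piece 3 it was 0.0509 for Xrcc5. Lig3 gave 3.91, 4.63 and 4.43 reads per Lig4 read in KO and 1.57, 1.75, 1.93 and 2.85 in KO + NM1 (log2 difference 1.13).

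Xrcc4, the partner that holds Lig4, did not pass the test at 7.83, 9.45 and 9.58 CPM and 9.23, 8.34, 8.94 and 8.96 CPM (log2 fold change 0.01, SE 0.19, adjusted p = 0.957). Nhej1, a further factor of the ligation step, had 0.05 (SE 0.31, adjusted p = 0.903), and Prkdc, the kinase that Ku recruits, had 0.04 (SE 0.28, adjusted p = 0.914). Dclre1c, the Artemis nuclease, measured 18.1 to 20.2 CPM in KO, 17.6 CPM in KO + NM1 piece 1 and 6.59 to 9.41 CPM in pieces 2 to 4, and missed the threshold with all libraries (0.95, SE 0.37, adjusted p = 0.0686). The gap-filling polymerases Poll and Polm had 0.24 and -0.59 (adjusted p = 0.325 and 0.334), and Polm stood at 52.5 CPM in KO + NM1 piece 1 against 15.6 to 19.5 CPM in pieces 2 to 4.

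Further end-joining genes moved in both directions. Polq, the polymerase of the alternative, microhomology-based route, had a log2 fold change of 4.53 (SE 0.94, adjusted p = 0.00925), and Paxx, a Ku-binding accessory factor of the classical route, one of -1.82 (SE 0.20, adjusted p = 0.000908). Of the 4 such genes tested 2 were higher and 1 was lower (50% and 25%, against 25.7% and 24.5% of all genes). The Polq value rests on 85, 4, 3 and 27 counts in KO + NM1, so its size is less certain than its direction.

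No direct reversal gene passed the test. Mgmt, which takes methyl groups off guanine, had a log2 fold change of -1.0 (SE 0.36, adjusted p = 0.0596), at 3.65 to 4.23 CPM in KO, 4.01 CPM in KO + NM1 piece 1 and 7.03 to 10.7 CPM in pieces 2 to 4. Alkbh2, a DNA demethylase, measured 5.93, 5.21 and 6.7 CPM against 6.24, 6.59, 6.42 and 6.33 CPM (-0.10, SE 0.20, adjusted p = 0.699). Alkbh3, its relative for single-stranded DNA, had -0.38 (adjusted p = 0.119) with all KO pieces below the KO + NM1 pieces. Across all 5 lists of partner genes, 26 of 49 tested were higher in KO (53.1%, against 25.7% of all genes) and 2 were lower (4.08%, against 24.5%). The list of genes that resynthesise the strand after mismatch excision held 12 of the 26 and none of the 2. In the other lists the share higher was 30% to 50%.

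KO + NM1 piece 1 lay outside the range of pieces 2 to 4 for 38 of the 44 members, as the highest piece for 25 and the lowest for 13. That share, 86.4%, was close to the 84.4% of all genes. With it left out, 29 members were called instead of 22 while the calls over all genes rose as given above, none of the 22 was lost, and Parp1, Parp2, Xpa, Ercc4, Dclre1c, Mgmt and Alkbh3 were gained. The median SD of log2 CPM over the members was 0.114 in KO, 0.308 in KO + NM1 and 0.15 in KO + NM1 pieces 2 to 4, and over all genes it was 0.18, 0.466 and 0.21. Besides its B cell markers, this piece had the highest cycling-list level of its group (234 against 51.5 to 73.4 CPM). Its macrophage markers summed to 2420 CPM (565 to 783 in pieces 2 to 4) and its T and NK cell markers to 80.7 CPM (2.37 to 3.99). In the KO pieces these sums were 2630 to 3010 CPM and 90.7 to 118 CPM, and the B cell sum was 29 to 59.2 CPM. White adipocyte markers were lower in KO + NM1 piece 1 than in pieces 2 to 4 (5400 against 29100 to 39600 CPM), as were fibroblast markers (4080 against 9200 to 15400 CPM). The part of those cells in its repair gene levels was not tested.

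**Figure D4:**
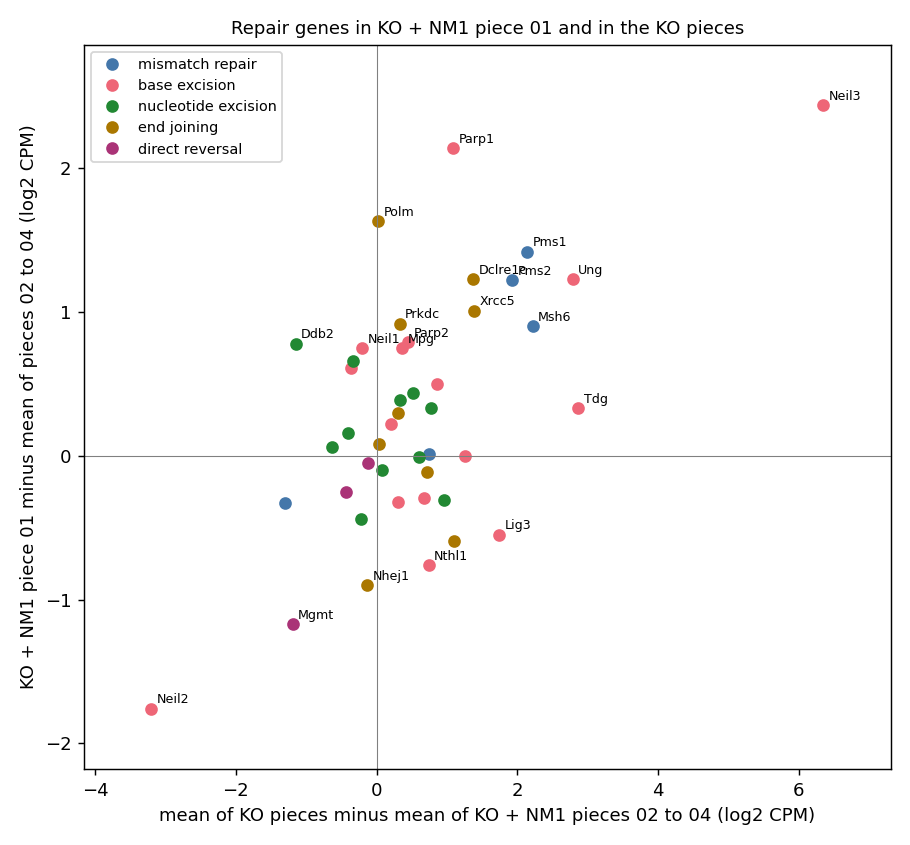
For each member, the log2 CPM of KO + NM1 piece 1 (vertical axis) and of the KO mean (horizontal axis), both minus the mean of KO + NM1 pieces 2 to 4, which both axes therefore share. Neil3, Parp1 and Polm lie highest on the vertical axis (1.9, 308 and 52.5 CPM in piece 1), and Neil2 lies low on both.

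Levels per kilobase of exon changed the order of the members between the groups. Ddb1, Rad23b and Parp1 held the first 3 places in KO and in KO + NM1, although the KO + NM1 pieces of Parp1 were spread widely and its place beside Rad23b is within that spread. Msh6 stood at place 4 in KO (23.5 CPM per kb) and at place 17 in KO + NM1 (6.12), Tdg went from place 12 to 36, and Mlh3 from place 43 to 31. The last place was held by Neil2 in KO (0.186 CPM per kb) and by Neil3 in KO + NM1 (0.13).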

How the data were processed

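Total RNA of tumor pieces was made into libraries (NEBNext Ultra II RNA, NextSeq). The submitters' processing notes name Trimmomatic 0.36, FastQC, HISAT2 2.0.4, SAMtools 0.1.19 and HTSeq with GRCm38. The authors deposited raw read counts per gene for each library. The strand setting and annotation release are not given in the sources used here. In R 4.3.3, genes were filtered with filterByExpr, TMM-scaled and tested with edgeR 4.0.16 (quasi-likelihood test, KO minus KO + NM1, no covariate), with Benjamini-Hochberg adjustment over all 16887 genes tested. CPM are TMM-scaled. Log2 ratios of related members used raw counts. The script was tested on simulated data with 200 changed genes. It recovered 2% of the 2-fold and 46% of the 4-fold changes, and 0% of its calls were unchanged genes. Far more genes were called in the tumor data (4345 higher and 4132 lower by adjusted p). The adjusted p cut-off differs between those settings, so the simulated rates need not hold for the tumor data. A member that did not pass is not shown to be unchanged. Tumor pieces were grouped by their GEO labels, and depth was 24088309 to 28326568 counts. A count of 3, the limit that a count of 0 allows, is 0.0991 to 0.148 CPM and covers counting error only.

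Members and lists were chosen with earlier results of these data known. Given in full were, in each class, up to 3 of the largest rises and 2 of the largest falls past the threshold, the smallest change among members of at least 5 CPM that missed it, and pairs whose ratio did not overlap and differed by 1 or more on the log2 scale. Of the partner genes, the 3 largest rises and 2 largest falls were named by rule. Cul4b and the genes that share reads with a member were named after their values were seen. Alternatives used DESeq2 1.42.0, limma 3.58.1 and other filters, scalings and libraries left out. Marker lists of brown adipocytes (5 of 6 lower in KO, none higher), macrophages (6 of 8 higher, none lower), endothelial cells (6 of 6 lower), B cells (0 of 5 called), T and NK cells (0 of 5 called), erythroid cells (3 of 3 tested lower), mammary epithelium (4 of 6 lower), keratinocytes (1 of 4 tested higher) and fibroblasts (1 of 10 higher, 4 lower) were also counted, by adjusted p alone. Of the members, 37 matched the RefSeq promoter table. Protein sequences were not used here.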

Additional observations from a re-analysis of the deposited data

Results flagged for a closer look

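Among 58 sets of 4 KO + NM1 values (44 members and 14 ratios), 11 held a far piece. Its gap to its nearest neighbour, divided by the range of its group, exceeded Dixon's 95% critical value. Independent sets would give about 2.9 by chance, but these sets share the same 4 pieces and the ratios are built from the members. No share over all genes is given for this measure. Piece 1 lay outside the range of pieces 2 to 4 for 84.4% of all genes. In 9 of the 11 sets the far piece was piece 1, the piece with high B cell markers. The gap was 0.853 of the range for Neil2 and 0.84 for the log2 ratio of Neil2 to Neil1, for both of which piece 1 was lowest. It was 0.911 for Parp1, 0.83 for Parp2, 0.899 for Ercc3, 0.921 for Ercc4, 0.852 for Ercc8, 0.866 for Prkdc and 0.894 for Polm, with piece 1 highest. Piece 3 was the far one for Rad23b (0.858) and for Xrcc6 (0.861), where it was highest. The cause of these gaps was not tested.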

How the results depend on the processing

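All 22 called members kept their direction in every one of 17 alternatives that tested them, and the median log2 fold change of the members stayed above 0 (0.08 to 0.40). Of 747 member values, 613 kept direction and side of the threshold, 56 lost the call, 35 gained it and 43 turned sign, all of the last for members that were not called. Library-size scaling moved the median of all genes by 0.18, upper-quartile scaling by -0.16 and DESeq2 size factors by -0.10. Tested against a 2-fold change (glmTreat), 1707 genes were higher and 2074 lower (2882 and 3424 before), and 5 members were higher and 1 lower (11 and 3). By adjusted p alone, voom called 7038 genes higher (4345 before). Members called lower by adjusted p (4) were 7 with DESeq2 size factors, 8 with upper-quartile scaling, 7 with the DESeq2 Wald test and 10 with voom. With 1 library left out in turn, members called higher were 10 to 21 and lower 4 to 8, those higher by 2-fold 6 to 10, and partners lower 2 to 8. Partners called lower (2) were 4 with DESeq2 size factors, 5 with upper-quartile scaling, 5 with the Wald test, 6 with voom and 1 with library size only, and with 2-fold also required 2 in place of 1 with DESeq2 size factors, upper-quartile scaling and the Wald test.

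With the piece number as a replicate block, 2680 genes were lower (4132 without), 17 partners were higher (26) and 1 lower (2), and 17 members were called, with Nthl1, Rad23b, Xrcc5, Xrcc6 and Lig4 lost. After the group means of log2 CPM were taken off, same-numbered pieces correlated at 0.0802, 0.102 and -0.0165. Differently numbered pieces gave -0.12 to 0.109. The numbers mark pieces of different tumors, so the main fit did not use them as pairs. These correlations alone cannot exclude a shared preparation.

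Uncalled members turned sign as follows. With 1 library left out, Mpg ranged from -0.01 to 0.24, Polb from -0.03 to 0.14, Parp1 from -0.05 to 0.95, Ercc5 from -0.05 to 0.13, Xrcc4 from -0.15 to 0, Prkdc from -0.12 to 0.20, Nhej1 from -0.26 to 0.17 and Poll from -0.01 to 0.25. Upper-quartile scaling gave -0.02 for Mpg, -0.05 for Ercc5, -0.14 for Xrcc4, -0.11 for Prkdc and -0.11 for Nhej1. DESeq2 size factors gave -0.09, -0.05 and -0.06 for Xrcc4, Prkdc and Nhej1, the Wald test -0.07, -0.04 and -0.04, and a filter of 1 count -0.08, -0.05 and -0.05. A filter of 10 counts in every library gave -0.04 for Xrcc4 and -0.01 for Prkdc and could not test Neil3. Voom gave -0.08 for Nhej1 and 0.10 for Polm, and library size only 0.08 for Ercc1 and 0.08 for Alkbh2. Apart from the scalings and libraries left out, the cause was not tested. Per kilobase of the longest transcript, 8 of the 10 members with the highest level were shared with the exon-union order in each group. Depth limits Neil3 in KO + NM1, where 1 piece had 2 counts, and the partners Exo1 and Polq, each with 3 counts in 1 piece.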
